A study of Mus musculus with 17 samples.

Results

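The left ventricle (LV) of newborn mice was compared between the day of birth (P0) and postnatal day 3 (P3). The samples were taken by their titles, 3 libraries of LV at P0 and 3 of LV at P3, which are 6 of the 17 RNA libraries in the series. All came from male C57Bl/6 mice with no treatment listed. The submitters describe P0 as before closure of the ductus arteriosus, P3 as a transition and P7 as the age at which most cardiomyocytes have reached terminal differentiation. The series also holds LV at P7 (3 libraries) and right ventricle (RV) at P0, P3 and P7, which were used only where LV was compared with them. The libraries were made from total RNA of whole ventricle, so each holds cardiomyocytes, fibroblasts, vessel cells and blood together. The labels call the samples of a group biological replicates and do not say whether hearts were pooled.

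Birth replaces placental supply with milk and raises arterial oxygen, and the mouse heart remodels within days. Cardiomyocytes turn from glucose and lactate to fatty acids as fuel, a switch carried by the nuclear receptors of the PPAR family, exchange fetal for adult isoforms of the contractile proteins, and leave the cell cycle after a last round of division. Hypoxia-inducible factor, which keeps glycolytic genes active at the low oxygen of fetal life, is degraded when oxygen is plentiful.

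The values are read counts scaled to transcript length and library size (RPKM) for RefSeq mRNA entries. Library sizes recovered from the values were 30488119 to 41061058 reads. With most entry lengths fitted from the values, the listed entries held an estimated 71.2% ± 1.71 (SD, n = 3) of the reads at P0. At P3 the share was 62.8% ± 4.16 (n = 3), with an exact two-sided permutation p of 0.10. That is the smallest p that 3 against 3 libraries can give. Along the first principal component of the 6 libraries, with 67.5% of the variance, the ages separated. Along the second, with 14.3%, P3 replicate 2 (-15.33) lay apart from P3 replicate 1 (13.98). The cardiomyocyte markers summed to 37188 to 42842 RPKM at P0 and 33861 to 41685 RPKM at P3, and 9 markers of lung, liver, thymus and brown fat to 2.15 to 3.00 RPKM at P0 and 2.70 to 3.24 RPKM at P3. The 4 Y-linked genes summed to 41.9 to 62.2 RPKM at P0 and 63.2 to 72.4 RPKM at P3. The entry NM_008710, not named here, stood at 6.75, 15.6 and 12 RPKM at P0 and 14.6, 0.128 and 0.146 RPKM at P3, so P3 replicate 1 lay within the P0 range and P3 replicates 2 and 3 far below it (log2 change -2.12 ± 0.93, adjusted p = 0.0964, and 0.00727 without P3 replicate 1). Without those 2 libraries together, 430 entries rose and 572 fell, against 774 and 2201 with them. In that fit, here and below, P3 has 1 library, whose spread is assumed to be that of the other groups.

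A difference is called here when limma, fitted on log2(RPKM + 1) across all 17 libraries and all tested entries, gave a two-sided Benjamini-Hochberg adjusted p under 0.05. "Rose" and "fell" are used only of called genes, means are given ± SD over 3 libraries, and changes are log2 differences ± SE on that scale, which understates the change of low genes. The p-values measure the spread between these libraries. Of 10236 genes tested, 748 (7.31%) rose from P0 to P3 and 2140 (20.9%) fell, with 110 and 128 beyond 2-fold. The median change over all entries was -0.13, and 74.0% of the calls were lower. After the libraries were set to a common upper quartile, the median was 0.003 and 1348 genes (13.2%) rose and 1095 (10.7%) fell, with 45.0% of the called entries lower. Of the entries called on either scale, 1908 were called in the same direction on both, 1067 fell only as deposited, 612 rose only after scaling and 0 were called in opposite directions. The 3 P0 and 3 P3 libraries did not overlap for 1035 genes with higher (10.1%) and 3184 with lower values (31.1%) at P3. Counts in many gene groups are given on both scales, and the upper-quartile values are called values after scaling. A count given once is of the values as deposited and may move with the scale.

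Genes of fuel use were among the largest rises. Ucp3, a muscle uncoupling protein of the inner mitochondrial membrane (chromosome 7, 100472991 to 100486432 in GRCm38), was near 0 before the change, at 0.0398, 0.0536 and 0.111 RPKM at P0 and 12.8, 22.6 and 19.5 RPKM at P3 (log2 change 4.14 ± 0.17, adjusted p = 1.62e-12). Fbp2, the muscle fructose bisphosphatase that runs against glycolysis, was likewise near 0 at birth and tight afterwards, at 0.113, 0.0507 and 0.0839 RPKM at P0 and 12.9, 13.4 and 12.7 RPKM at P3 (log2 change 3.70 ± 0.11, adjusted p = 5.96e-15). The fuel genes Scd4, Angptl4 and Pdk4 moved from a low to a moderate level. Scd4, a stearoyl-CoA desaturase, stood at 3.51, 4.08 and 4.89 RPKM at P0 and 62.8, 55.4 and 58.1 RPKM at P3 (log2 change 3.54 ± 0.12, adjusted p = 5.38e-14). Angptl4, a secreted inhibitor of lipoprotein lipase, stood at 3.41, 3.48 and 6.74 RPKM at P0 and 52.6, 59.5 and 60.3 RPKM at P3 (log2 change 3.45 ± 0.19, adjusted p = 1.34e-10). Pdk4, the kinase that shuts pyruvate dehydrogenase and so spares glucose, stood at 13.4, 9.33 and 14.4 RPKM at P0 and 64.5, 74.8 and 79.3 RPKM at P3 (log2 change 2.48 ± 0.16, adjusted p = 1.41e-09). In each of them all P3 libraries lay above the P0 range, which the rule for naming the largest changes required. Others of the 12 largest rises were Slc25a34, a mitochondrial carrier (3.67), the alpha-tubulin Tuba8 (3.14), the membrane carbonic anhydrase Car4 (2.84), the secretoglobin Scgb1c1 (2.69), the membrane receptor Paqr9 (2.62) and the galectin Lgals4 (2.48).

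At the other end stood Myh7, the slow myosin heavy chain that dominates the fetal mouse ventricle (chromosome 14, 54970684 to 54994626). It was at 3438, 2589 and 3258 RPKM at P0 and 457, 98.3 and 220.1 RPKM at P3 (log2 change -3.83 ± 0.36, adjusted p = 2.24e-07). Every P3 library was far below every P0 library, and P3 replicate 1 kept the most. Bmp10, a growth factor of the embryonic trabecular myocardium that later is an atrial product, was at 27.0, 12.3 and 18.5 RPKM at P0 and 0.809, 0.521 and 0.488 RPKM at P3 (log2 change -3.60 ± 0.23, adjusted p = 1.59e-09). Slc2a1, the fetal glucose transporter GLUT1 (chromosome 4, 119108745 to 119137330), was at 56.7, 50.3 and 63.8 RPKM at P0 and 8.13, 8.33 and 9.38 RPKM at P3 (log2 change -2.59 ± 0.13, adjusted p = 2.65e-11), with the 3 P3 libraries close together. Nppa, the atrial natriuretic peptide that fetal ventricle also makes, was at 943, 738 and 692 RPKM at P0 and 149, 282 and 169 RPKM at P3 (log2 change -2.02 ± 0.29, adjusted p = 4.32e-05). Pgam1, a phosphoglycerate mutase of glycolysis, was at 232, 186 and 242 RPKM at P0 and 50.5, 51.7 and 57.3 RPKM at P3 (log2 change -2.02 ± 0.12, adjusted p = 8.27e-10). In none of these 5 genes did the groups overlap, which the same rule required. The other genes of the 12 largest falls were Gipr, the receptor of an incretin hormone (-3.31), the atrial light chain Myl4 (-2.84), Gtsf1 (-2.07), the smooth muscle calponin Cnn1 (-2.07), the beta-globin Hbb-bt (-2.0), the skeletal-type calsequestrin Casq1 (-1.97) and Bex4 (-1.95).

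**Figure D1:**
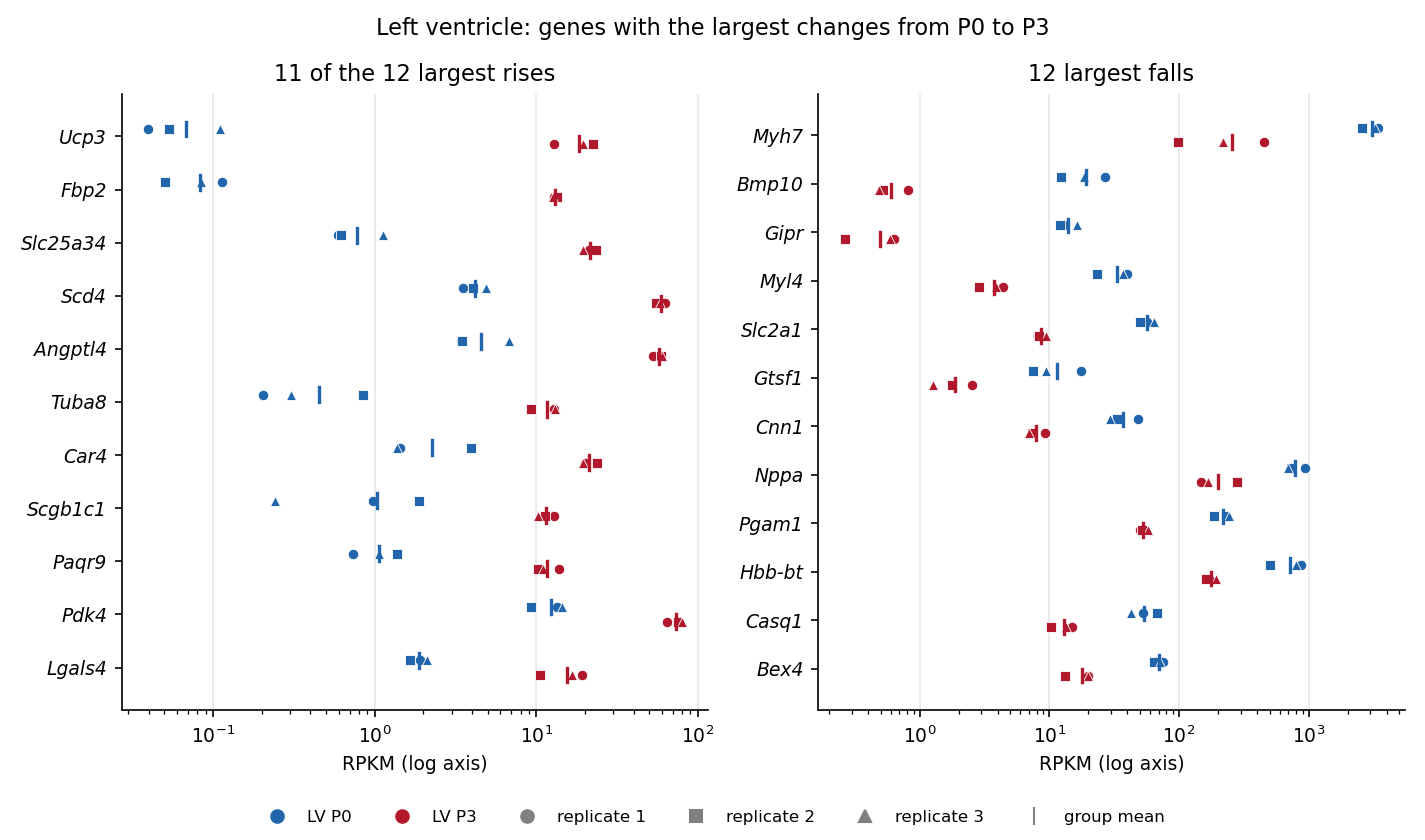
RPKM of 11 of the 12 genes with the largest rises and of the 12 with the largest falls from P0 to P3 in LV, on a log axis, with 1 marker per library (shape gives the replicate, colour the age) and a bar for each group mean. No P0 library overlaps a P3 library for any of these genes, which the rule for naming them required.

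The pathway lists showed where these changes gathered. The next paragraphs take them by function, and the plot of called members by list shows them side by side. Against 7.31% of all genes higher and 20.9% lower as deposited, the fatty acid and PPAR lists stood almost wholly on the higher side. Mitosis, imprinted growth genes, hypoxia, glycolysis and cytosolic ribosomal proteins stood mostly on the lower. After scaling, 10.7% of all genes were lower. The lower members were then 14 of 23 for mitosis, 9 of 10 for imprinted growth, 9 of 14 for hypoxia, 15 of 21 for glycolysis and 7 of 23 for ribosomal proteins.

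**Figure D2:**
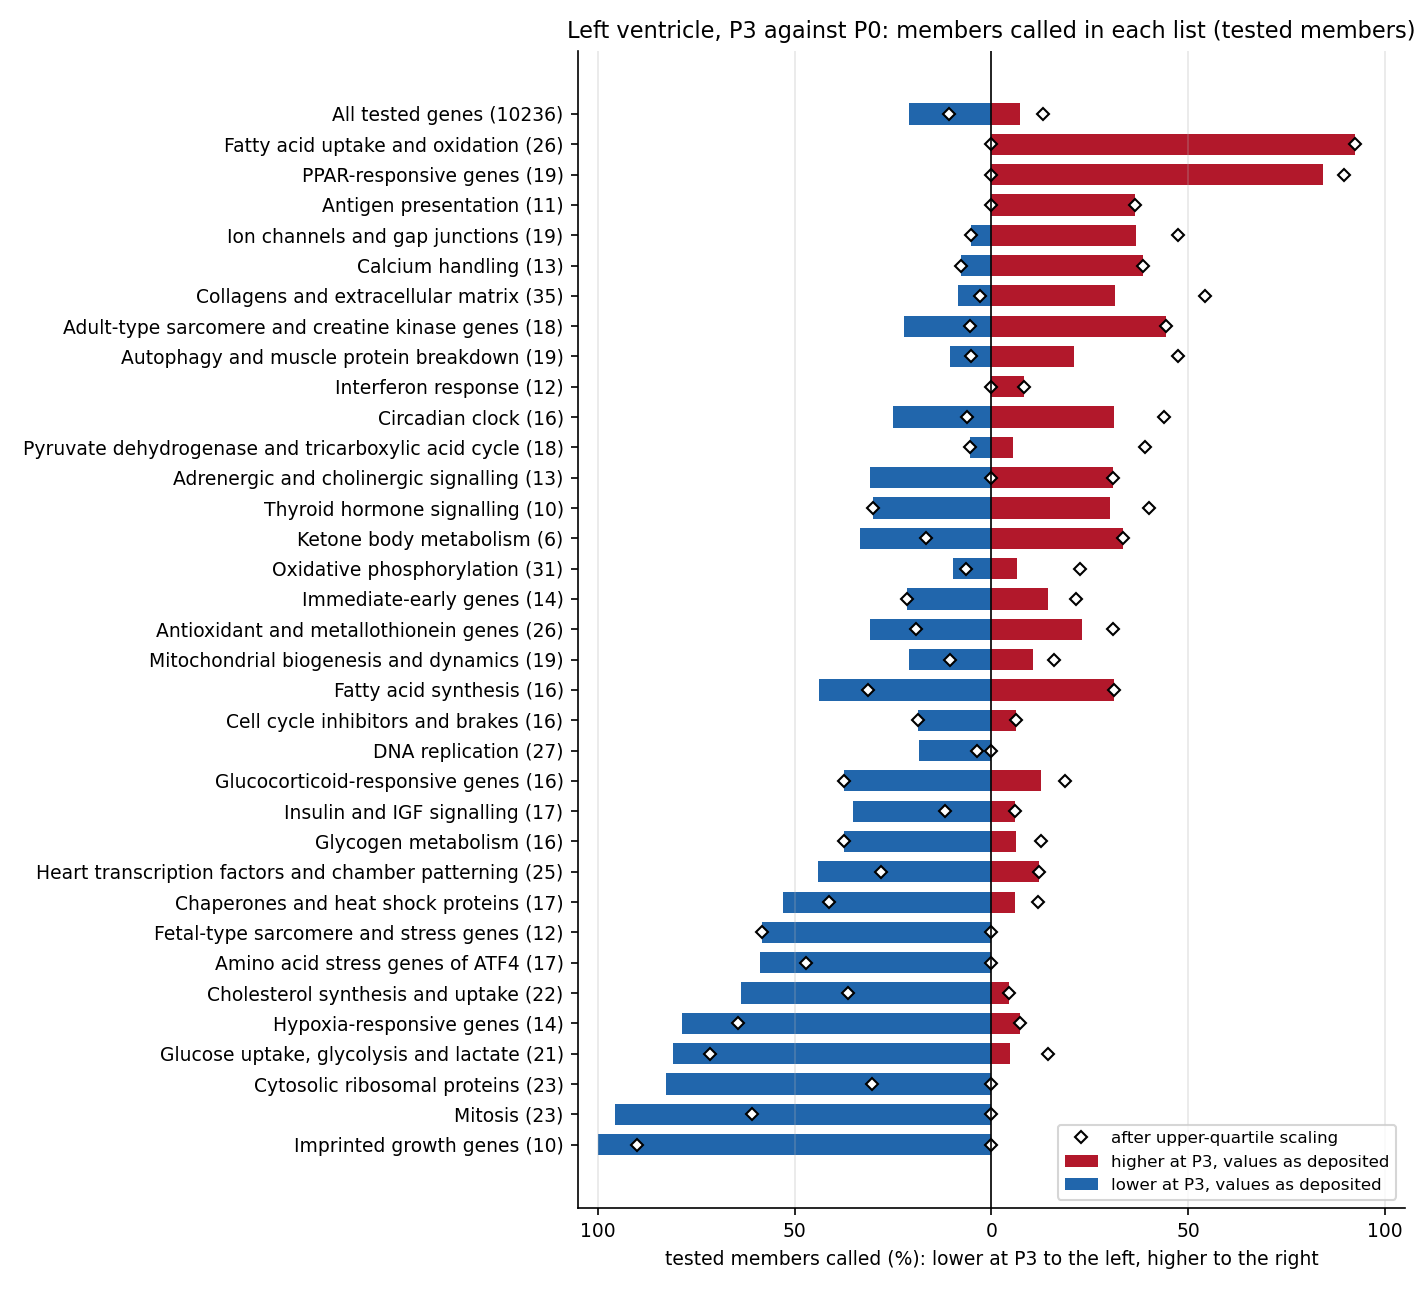
Percent of tested members of each list called lower (left) or higher (right) at P3 against P0 in LV, with the number tested in brackets. Bars are values as deposited (24 of 26 fatty acid oxidation genes are higher and 22 of 23 mitosis genes lower). Diamonds are values after upper-quartile scaling (24 and 14 of the same lists).

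Genes of fatty acid uptake and oxidation rose almost as one group. Of the 26 tested, 24 rose and 0 fell, with a median of 1.03, and the counts were the same after scaling. The 2 not called were Echs1 (-0.21 ± 0.10, adjusted p = 0.131) and Acot13 (0.13 ± 0.10, adjusted p = 0.370). Entry into the cell was covered by the transporter Slc27a1 and the binding protein Fabp3. Slc27a1 went from 7.35 ± 0.473 to 25.8 ± 1.08 RPKM (log2 change 1.68 ± 0.13, adjusted p = 1.54e-08; SD, n = 3). Fabp3, a major cytosolic carrier of fatty acids in heart, stood at 1451, 1939.6 and 1689 RPKM at P0 and 5067, 5981 and 4607 RPKM at P3 (log2 change 1.62 ± 0.14, adjusted p = 5.67e-08), with all P3 libraries above all P0 libraries. Inside mitochondria, Decr1, the dienoyl-CoA reductase needed for unsaturated fatty acids, stood at 34.1, 35.7 and 36.4 RPKM at P0 and 109.5, 127 and 111 RPKM at P3 (log2 change 1.68 ± 0.08, adjusted p = 1.39e-11). Acot2, a mitochondrial thioesterase, went from 24.5 ± 4.82 to 81.2 ± 5.15 RPKM (log2 change 1.70 ± 0.14, adjusted p = 4.74e-08). The chain between these steps moved too, from the scavenger receptor Cd36 (1.12, in 1 of 5 entries) and the carnitine carrier Slc25a20 (1.32) to the trifunctional protein subunits Hadha (1.19) and Hadhb (1.19). The muscle carnitine palmitoyltransferase Cpt1b rose (0.48), as did the liver-type Cpt1a (0.96); the difference between these changes was not tested.

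Genes that PPAR receptors are known to switch on followed. Of 19 tested, 16 rose and 0 fell, with a median of 1.32, and 17 and 0 after scaling, with a median of 1.48. The list shares members with fatty acid oxidation and holds Ucp3, Angptl4 and Pdk4 from above, so it adds few separate genes. Vldlr (0.31) and Ehhadh (0.12) were not called. In ketone metabolism, Oxct1, the enzyme with which heart burns ketones, fell from 207 ± 20.8 to 107 ± 15.0 RPKM (log2 change -0.94 ± 0.13, adjusted p = 3.78e-05). Acat1, the mitochondrial thiolase, rose by a small amount (0.29 ± 0.07, adjusted p = 0.00735). The monocarboxylate carrier Slc16a1 fell on the values as deposited (-0.35 ± 0.12, adjusted p = 0.0342), a call lost after scaling and on leaving out single libraries (adjusted p = 0.155 without P0 replicate 3 and 0.216 without P3 replicate 2).

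Glycolysis moved the other way. Of 21 tested genes of glucose uptake, glycolysis and lactate, 1 rose and 17 fell, with a median of -0.86, and 3 and 15 after scaling or without P0 replicate 2. The fall ran along the pathway, from the hexokinase Hk1 (-1.11, in 1 of 2 entries) through phosphofructokinase Pfkp (-1.44), Pgk1 (-1.05) and Eno1 (-1.41) to lactate dehydrogenase Ldha (-1.01, in 1 of 2). Aldoc, an aldolase, was at 15.0, 15.6 and 13.9 RPKM at P0 and 4.23, 4.90 and 3.99 RPKM at P3 (log2 change -1.56 ± 0.12, adjusted p = 1.18e-08), with no overlap. The lactate exporter Slc16a3 fell by 1.55 in the entry used, which is 1 of 3 listed for the gene, so its share of the gene's reads is uncertain. The muscle enolase Eno3 rose (0.63, in 1 of 3 entries), while Slc2a4, the insulin-responsive transporter GLUT4 of adult heart, was not called as deposited (29.9 ± 3.50 to 38.0 ± 5.75 RPKM, log2 change 0.33 ± 0.13, adjusted p = 0.0706) and was called higher after scaling and on leaving out single libraries (adjusted p = 0.0441 without P0 replicate 2 and 0.0249 without P3 replicate 2). Glycogen genes fell in part, 6 of 16, with 1 higher, or 2 higher after scaling. They included the glycogenin Gyg, which primes the particle (-1.26 ± 0.10, adjusted p = 2.03e-08), the synthase Gys1 (-1.20 ± 0.10, adjusted p = 5.87e-08), the liver-type phosphorylase Pygl (-1.25 ± 0.11, adjusted p = 5.87e-08) and the targeting subunit Ppp1r3c (-1.24 ± 0.16, adjusted p = 1.31e-05).

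Hypoxia-responsive genes fell beside glycolysis, with which the list shares Slc2a1 and Ldha. Of 14 tested, 1 rose and 11 fell, with a median of -0.76, and 1 and 9 after scaling. Bnip3, a mitochondrial protein of mitophagy, stood at 100.1, 116 and 172 RPKM at P0 and 42.6, 46.4 and 44.0 RPKM at P3 (log2 change -1.48 ± 0.17, adjusted p = 4.00e-06). Egln3, an oxygen-sensing prolyl hydroxylase and itself a target of the factor, stood at 27.6, 44.3 and 49.5 RPKM at P0 and 15.3, 12.8 and 13.8 RPKM at P3 (log2 change -1.43 ± 0.19, adjusted p = 2.21e-05). Ndrg1, a stress gene often used as a hypoxia marker, stood at 30.8, 28.0 and 34.1 RPKM at P0 and 12.5, 12.4 and 12.7 RPKM at P3 (log2 change -1.24 ± 0.11, adjusted p = 6.22e-08). The P0 and P3 libraries did not overlap for any of these. Of the factors themselves, Hif1a fell (-0.45) and Epas1, its endothelial relative, rose (0.63), as transcripts only.

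The promoters of 3 fallen genes of these lists show the core of the hypoxia response element, ACGTG, which is in capitals below. The windows run from 170 bases before to 30 after the RefSeq start in GRCm38.p6, each 5′ to 3′ along the gene's strand: Slc2a1 chr4:119108575-119108774 (forward strand), Pgam1 chr19:41911701-41911900 (forward strand) and Bnip3 chr7:138909477-138909676 (reverse strand), where 2 matches on opposite strands overlap as CACGTG. They were chosen as the 3 called members with a single entry and the largest falls whose window holds the pattern.
Slc2a1: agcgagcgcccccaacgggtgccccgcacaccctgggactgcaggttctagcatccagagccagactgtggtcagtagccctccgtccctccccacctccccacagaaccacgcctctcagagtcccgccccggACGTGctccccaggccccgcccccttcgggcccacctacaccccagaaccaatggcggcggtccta
Pgam1: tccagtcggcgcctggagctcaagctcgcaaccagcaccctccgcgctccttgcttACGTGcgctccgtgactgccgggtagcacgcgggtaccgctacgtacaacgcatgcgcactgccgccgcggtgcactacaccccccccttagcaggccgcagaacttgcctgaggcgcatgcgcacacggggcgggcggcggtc
Bnip3: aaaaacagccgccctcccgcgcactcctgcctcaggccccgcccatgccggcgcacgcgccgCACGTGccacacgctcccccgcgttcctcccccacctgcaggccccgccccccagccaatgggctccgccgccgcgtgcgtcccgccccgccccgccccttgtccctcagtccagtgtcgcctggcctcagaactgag
Searched on both strands over 300 bases, ACGTG was in 10 of 14 promoters of the hypoxia list (71.4%) and 14 of 31 of the glycolysis list (45.2%), some genes having several starts. It was in 26% of the promoters of tested genes and in 19.6% of all 32851. The longer GACGTG was in 5 and 8 of them (35.7% and 25.8%), against 9.58% and 6.38%. A loose pattern for the direct repeat that nuclear receptor pairs bind, its repeats 1 base apart, was in 0 of 25 promoters of the fatty acid oxidation list and 0 of 16 of the PPAR list, against 2.48% for tested genes. With a share that low over tested genes, 0 matches in lists of this size cannot show that the pattern is lacking there. These are matches of letters, and the windows are short.

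Few mitochondrial genes outside fat oxidation were called, and in both directions. Of 31 tested genes of oxidative phosphorylation, 2 rose and 3 fell, with 7 and 2 after scaling, 4 and 3 without P0 replicate 2, and a median of 0.03. Among the paired isoforms of cytochrome c oxidase, the broadly expressed member fell in 2 of 3 pairs. Cox6a1, the broadly expressed form, stood at 1391, 1294 and 1163 RPKM at P0 and 571, 752 and 700.1 RPKM at P3 (log2 change -0.93 ± 0.11, adjusted p = 3.64e-06), all P3 libraries below all P0 libraries. The muscle form Cox6a2 went from 2097 ± 564 to 2789 ± 404 RPKM and was not called (log2 change 0.43 ± 0.18, adjusted p = 0.0753), but it was called higher on leaving out single libraries (adjusted p = 0.00976 without P0 replicate 2 and 0.0465 without P3 replicate 1). Cox8a, again the broad form, went from 894 ± 103 to 525 ± 17.7 RPKM (log2 change -0.76 ± 0.10, adjusted p = 2.80e-05), and the muscle form Cox8b from 628 ± 94.9 to 1032 ± 113 RPKM (log2 change 0.72 ± 0.13, adjusted p = 3.07e-04). In the third pair, neither Cox7a1 (-0.03 ± 0.15, adjusted p = 0.911) nor Cox7a2 (-0.11 ± 0.11, adjusted p = 0.462) was called. In the tricarboxylic acid cycle, Sucla2 rose (0.35; adjusted p = 0.105 without P0 replicate 1 and 0.0519 without P3 replicate 1) and Suclg2 fell (-0.38), the partner subunits for ADP and GDP of succinyl-CoA ligase. Those were the 1 and 1 calls among 18 tested, with 7 and 1 after scaling and 4 higher without P0 replicate 2. Of the regulators, Perm1, a muscle partner of PGC-1, rose (0.64 ± 0.16, adjusted p = 0.00709; adjusted p = 0.0521 without P0 replicate 1), and Klf15, a Krüppel-like factor of heart metabolism, fell (-1.12 ± 0.12, adjusted p = 1.07e-06).

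Several fetal-type contractile genes fell. Of 12 tested fetal-type sarcomere and stress genes, 0 rose and 7 fell, with a median of -1.29, and the counts after scaling were 0 and 7. Besides Myh7, Myl4, Cnn1 and Nppa, the atrial light chain Myl7 stood at 247, 222 and 269 RPKM at P0 and 87.1, 85.4 and 91.3 RPKM at P3 (log2 change -1.47 ± 0.31, adjusted p = 0.00176). Nppb, the B-type natriuretic peptide of stretched ventricle, stood at 176, 292 and 355 RPKM at P0 and 92.9, 64.7 and 117 RPKM at P3 (log2 change -1.56 ± 0.27, adjusted p = 2.54e-04). Both groups were separate. Tnni1, the slow skeletal troponin I of fetal heart, was not called, from 267 ± 32.8 to 216 ± 65.8 RPKM (log2 change -0.34 ± 0.16, adjusted p = 0.113) in the higher of 2 entries, but it was called lower without P3 replicate 1 (adjusted p = 0.00382 without P3 replicate 1). The adult isoform Tnni3 rose by little, from 2367 ± 351 to 2973 ± 127 RPKM (log2 change 0.34 ± 0.12, adjusted p = 0.0464), a call lost on leaving out single libraries (adjusted p = 0.168 without P0 replicate 1, 0.17 without P0 replicate 3, 0.112 without P3 replicate 1, 0.0912 without P3 replicate 2 and 0.0816 without P3 replicate 3).

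Of 18 adult-type sarcomere and creatine kinase genes, 8 rose and 4 fell, with 8 and 1 after scaling. The rises numbered 4 without P0 replicate 1 or P3 replicate 1 and 5 without P0 replicate 3, and the falls numbered 2 without P3 replicate 2. Myom2, an M-band protein of fast and adult sarcomeres, stood at 29.1, 58.8 and 47.4 RPKM at P0 and 156, 172 and 169 RPKM at P3 (log2 change 1.91 ± 0.27, adjusted p = 3.67e-05), every P3 library above every P0 library. Myh6, the fast adult myosin heavy chain next to Myh7 on chromosome 14, stood at 21.1, 41.9 and 26.8 RPKM at P0 and 70.0, 58.3 and 87.2 RPKM at P3 (log2 change 1.27 ± 0.27, adjusted p = 0.00196) in the higher of 2 entries. How reads were shared among a gene's entries is not stated, so its level is uncertain. Tcap, the titin cap, went from 67.4 ± 10.5 to 119 ± 22.4 RPKM (log2 change 0.81 ± 0.19, adjusted p = 0.00343). The mitochondrial creatine kinase Ckmt2 went from 90.4 ± 45.8 to 162 ± 23.1 RPKM (log2 change 0.93 ± 0.28, adjusted p = 0.0193) with overlapping libraries and a call that single libraries decided (adjusted p = 0.112 without P0 replicate 1, 0.0879 without P0 replicate 3 and 0.0612 without P3 replicate 1). The entry used for troponin T, Tnnt2, fell (-1.75), and as 1 of 9 listed splice forms it does not give the gene's total. The coding entry of Ppp1r1b, a phosphatase inhibitor that neighbours Tcap and whose locus the series links to a long noncoding RNA, stood at 49.9, 43.0 and 39.0 RPKM at P0 and 14.6, 13 and 12.6 RPKM at P3 (log2 change -1.64 ± 0.15, adjusted p = 1.06e-07), with no overlap. That noncoding RNA was not analysed here.

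Excitation and calcium genes moved in part. Of 13 calcium handling genes, 5 rose and 1 fell, with 3 higher without P0 replicate 1. Atp2a2, the calcium pump SERCA2, stood at 55.5, 73.3 and 61.4 RPKM at P0 and 134, 94.1 and 115 RPKM at P3 (log2 change 0.84 ± 0.12, adjusted p = 6.31e-05), the groups not overlapping. Its brake Pln went from 7.30 ± 0.520 to 12.8 ± 0.466 RPKM in 1 of 2 entries (log2 change 0.74 ± 0.11, adjusted p = 8.85e-05), and the histidine-rich calcium-binding protein Hrc from 71.8 ± 5.63 to 108 ± 10.8 RPKM (log2 change 0.58 ± 0.12, adjusted p = 0.00114). The sodium-calcium exchanger Slc8a1 fell in 1 of 2 entries (-0.69 ± 0.12, adjusted p = 2.18e-04). Among 19 genes of ion channels and connexins, 7 rose and 1 fell, with 9 and 1 after scaling. The rises were led by the pacemaker channel Hcn2, from 0.548 ± 0.277 to 2.77 ± 0.392 RPKM (log2 change 1.29 ± 0.14, adjusted p = 1.56e-06), and the background potassium channel Kcnk3, from 12.9 ± 1.5 to 26.1 ± 2.31 RPKM (log2 change 0.97 ± 0.12, adjusted p = 1.23e-05). The fall was that of connexin 40, Gja5, in 1 of 2 entries (-0.64 ± 0.12, adjusted p = 6.92e-04). Of 13 adrenergic and cholinergic signalling genes, 4 rose and 4 fell, with a median of -0.10. After scaling 4 rose and 0 fell, and the count of falls was 0 to 3 on leaving out 1 library (0 without P0 replicate 1 or P3 replicate 2, 1 without P3 replicate 3, and 2 without P0 replicate 2 or P0 replicate 3). The falls were the phosphodiesterase Pde4d (-0.34), the adenylate cyclases Adcy5 (-0.35) and Adcy6 (-0.30) and the G protein subunit Gnai2 (-0.29). Among the rises, Adra1b, an alpha-1 adrenergic receptor, stood at 5.04, 5.92 and 4.18 RPKM at P0 and 18.3, 16.5 and 17.7 RPKM at P3 (log2 change 1.62 ± 0.17, adjusted p = 1.39e-06), and the beta-1 receptor Adrb1 went from 4.93 ± 0.183 to 8.69 ± 1.03 RPKM (log2 change 0.70 ± 0.14, adjusted p = 8.07e-04). Rgs4, which damps signalling through G proteins, rose too (1.25 ± 0.12, adjusted p = 2.61e-07).

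Genes of mitosis fell together by moderate amounts. Of 23 tested, 0 rose and 22 fell, with a median of -0.65, and 14 fell after scaling. The count was 12 without P0 replicate 1 and 11 without P3 replicate 2. Without P3 replicates 2 and 3 together it was 3. Ube2c, the ubiquitin-conjugating enzyme of the anaphase-promoting complex, stood at 192, 177 and 163 RPKM at P0 and 79.8, 70.9 and 104 RPKM at P3 (log2 change -1.07 ± 0.14, adjusted p = 1.62e-05). Ccnb1, the cyclin that drives entry into mitosis, stood at 70.6, 62.2 and 65.6 RPKM at P0 and 38.1, 25.3 and 43.9 RPKM at P3 (log2 change -0.90 ± 0.18, adjusted p = 0.00121). Anln, the ring scaffold of cytokinesis, stood at 35.3, 33.1 and 34.5 RPKM at P0 and 22.3, 11.9 and 24.2 RPKM at P3 (log2 change -0.85 ± 0.19, adjusted p = 0.00308). In each the lowest P0 library was above the highest P3 library. Ccna2 fell (-0.83 ± 0.16, adjusted p = 8.85e-04), and the proliferation marker Mki67 went from 54.1 ± 6.92 to 40.1 ± 6.53 RPKM (log2 change -0.43 ± 0.13, adjusted p = 0.0225), a call lost after scaling and on leaving out single libraries (adjusted p = 0.127 without P0 replicate 1 and 0.135 without P3 replicate 2). The kinase Aurkb was the 1 member not called (-0.34 ± 0.16, adjusted p = 0.114).

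Cell cycle promoters carry 2 well-known patterns, the CCAAT box and the cell cycle homology region, most often TTTGAA. Both are in capitals below, on either strand, for the 3 members with a single entry and the largest falls whose window holds both, among them the kinesin Kif11 and the centromere protein Cdca8 with changes of -0.71 and -0.73. The windows are Ube2c chr2:164769759-164769958 (forward strand), Cdca8 chr4:124936888-124937087 (reverse strand) and Kif11 chr19:37376212-37376411 (forward strand), again 170 bases before to 30 after the RefSeq start in GRCm38.p6. The reverse complements appear in the lines as ATTGG and TTCAAA, and Ube2c holds 3 CCAAT matches, Cdca8 4 and Kif11 1, each with 1 TTTGAA.
Ube2c: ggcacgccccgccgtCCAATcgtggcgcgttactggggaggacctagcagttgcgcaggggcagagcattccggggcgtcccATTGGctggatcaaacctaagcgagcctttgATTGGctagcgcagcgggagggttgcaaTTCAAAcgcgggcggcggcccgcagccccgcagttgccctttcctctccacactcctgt
Cdca8: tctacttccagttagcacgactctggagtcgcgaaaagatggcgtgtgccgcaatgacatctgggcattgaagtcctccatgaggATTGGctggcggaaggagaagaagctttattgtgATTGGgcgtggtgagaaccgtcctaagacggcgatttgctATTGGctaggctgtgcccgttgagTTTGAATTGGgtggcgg
Kif11: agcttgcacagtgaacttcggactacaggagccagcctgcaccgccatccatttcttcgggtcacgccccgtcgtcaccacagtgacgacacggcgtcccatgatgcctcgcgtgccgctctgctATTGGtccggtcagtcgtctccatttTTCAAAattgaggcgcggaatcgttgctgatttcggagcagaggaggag
Over 300 bases and both strands, CCAAT was in 17 of 20 promoters of the mitosis list (85%), against 38.2% of the promoters of tested genes and 37.4% of all. It was in 16 of 19 promoters of the cholesterol list (84.2%) as well. TTTGAA was in 16 of 20 of the mitosis list (80%), against 11.7% and 17.9%, and in 1 of 19 of the cholesterol list (5.26%). The TATA box, TATAAA, was in 0 of 20, against 7.26% and 13.6%. With shares that low, 0 matches in 20 promoters cannot show that it is lacking there. The shares describe the listed promoters and say nothing of which factor bound them at either age.

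The share of DNA replication genes that fell by P3, with values as deposited, was near the 20.9% of all tested genes. After scaling, 10.7% of all tested genes fell. Of 27 tested, 0 rose and 5 fell, with a median of -0.20 beside -0.13 for all entries, and 1 fell after scaling or without P0 replicate 1 or P3 replicate 2. The ribonucleotide reductase subunits Rrm1 (-0.49 ± 0.12, adjusted p = 0.00446) and Rrm2 (-0.60 ± 0.18, adjusted p = 0.0182) and the cyclin Ccne1 (-0.42 ± 0.12, adjusted p = 0.0151) were among those that fell. The calls of Rrm2 and Ccne1 were lost after scaling, and without P0 replicate 1 or P3 replicate 2 (Rrm2 adjusted p = 0.0689 without P0 replicate 1 and 0.138 without P3 replicate 2; Ccne1 adjusted p = 0.0552 without P0 replicate 1 and 0.0929 without P3 replicate 2). The inhibitors were mixed. Cdkn1c, an imprinted inhibitor of cyclin-dependent kinases, fell in the higher of 2 entries (-1.11 ± 0.17, adjusted p = 1.05e-04). Cdkn1a, another such inhibitor, was not called, at 0.740, 1.10 and 1.02 RPKM at P0 and 1.17, 0.359 and 1.08 RPKM at P3 (log2 change -0.09 ± 0.14, adjusted p = 0.679), and its libraries overlapped. Gadd45a, a growth arrest gene, rose from 2.04 ± 0.5 to 3.97 ± 0.452 RPKM (log2 change 0.72 ± 0.16, adjusted p = 0.00277).

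Growth genes of the fetus fell. Of the 10 imprinted growth genes that passed the filter on low values, 10 fell, with a median of -0.90, and 9 after scaling. This count was 5 without P3 replicates 2 and 3 together. Igf2, the fetal growth factor, stood at 29.1, 24.0 and 23.7 RPKM at P0 and 13.7, 12.2 and 11.5 RPKM at P3 (log2 change -0.98 ± 0.23, adjusted p = 0.00338) in the highest of 3 entries, all P3 libraries below all P0 libraries. Its clearance receptor Igf2r stood at 201, 125 and 181 RPKM at P0 and 85.9, 57.8 and 79.7 RPKM at P3 (log2 change -1.16 ± 0.19, adjusted p = 1.27e-04), and the receptor adaptor Grb10 went from 26.4 ± 4.29 to 10.4 ± 1.76 RPKM (log2 change -1.27 ± 0.16, adjusted p = 1.37e-05) in 1 of 2 entries. Of 17 insulin and IGF signalling genes, 1 rose and 6 fell, with 2 lower after scaling and 2 or 3 lower without P0 replicate 1, P0 replicate 3, P3 replicate 2 or P3 replicate 3. The carriers of the growth factors parted: Igfbp2 stood at 9.67, 3.08 and 6.09 RPKM at P0 and 0.695, 1.28 and 0.624 RPKM at P3 (log2 change -1.87 ± 0.29, adjusted p = 9.21e-05) and Igfbp3 went from 28.0 ± 6.82 to 10.6 ± 2.52 RPKM (log2 change -1.31 ± 0.18, adjusted p = 2.81e-05), while Igfbp7 went from 2.44 ± 0.319 to 8.79 ± 0.767 RPKM (log2 change 1.51 ± 0.14, adjusted p = 2.24e-07) in 1 of 2 entries.

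The machinery of protein synthesis and folding was lower as well. Of 23 cytosolic ribosomal protein genes, 0 rose and 19 fell, with a median of -0.42. After scaling 7 fell, and 11 did without P3 replicate 3. Rpl5, for example, went from 534 ± 65.1 to 366 ± 26.6 RPKM (log2 change -0.54 ± 0.11, adjusted p = 0.00147). These genes have many near-identical copies in the genome, so how their reads were assigned is uncertain. Of 17 chaperones, 1 rose and 9 fell, with 2 and 7 after scaling. The cytosolic chaperone Hsp90aa1 (-0.74 ± 0.10, adjusted p = 2.70e-05) and the small heat shock protein Hspb1 (-0.82 ± 0.10, adjusted p = 5.34e-06) fell, and Hspb6, the small heat shock protein of muscle, rose (0.54 ± 0.11, adjusted p = 0.00137). Of 17 genes of the amino acid stress response driven by ATF4, 0 rose and 10 fell, and 8 after scaling. Phgdh, the first enzyme of serine synthesis, stood at 14.4, 8.24 and 11.7 RPKM at P0 and 4.07, 3.72 and 3.75 RPKM at P3 (log2 change -1.33 ± 0.23, adjusted p = 3.70e-04), and the amino acid transporter Slc7a5 went from 9.26 ± 1.59 to 4.35 ± 0.352 RPKM (log2 change -0.93 ± 0.14, adjusted p = 6.09e-05).

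Many genes of cholesterol synthesis fell, and those of fatty acid synthesis moved both ways. Of 22 genes of cholesterol synthesis and uptake, 1 rose and 14 fell, with a median of -0.46, and 8 fell after scaling and 9 without P0 replicate 2. Sqle, the squalene epoxidase and a slow step of the pathway, stood at 11.4, 14.0 and 10.4 RPKM at P0 and 5.71, 3.89 and 6.2 RPKM at P3 (log2 change -1.06 ± 0.17, adjusted p = 1.11e-04). Its groups did not overlap. Of 16 fatty acid synthesis genes, 5 rose and 7 fell, with 5 and 5 after scaling. The desaturase Scd2 went from 140.0 ± 14.7 to 45.8 ± 2.47 RPKM (log2 change -1.59 ± 0.11, adjusted p = 3.78e-09), opposite to its relative Scd4. Gpam, the mitochondrial acyltransferase that opens triglyceride synthesis, went from 7.24 ± 0.422 to 21.8 ± 1.91 RPKM (log2 change 1.46 ± 0.11, adjusted p = 8.42e-09), and Dgat2, which closes it, from 12.6 ± 1.81 to 23.1 ± 0.421 RPKM (log2 change 0.84 ± 0.14, adjusted p = 2.32e-04).

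Transcription factors of heart formation were mostly lower or not called. Of 25 tested, 3 rose and 11 fell, with 3 and 7 after scaling. Without P0 replicate 1 the counts were 1 and 7, and without P3 replicate 2 they were 2 and 7. Hand1, which marks the fetal left ventricle, stood at 7.94, 3.82 and 4.22 RPKM at P0 and 1.26, 1.38 and 1.37 RPKM at P3 (log2 change -1.38 ± 0.16, adjusted p = 5.29e-06). Hey2, a repressor of the Notch pathway in compact ventricle, stood at 86.7, 70.6 and 86.5 RPKM at P0 and 37.4, 31.7 and 30.3 RPKM at P3 (log2 change -1.27 ± 0.11, adjusted p = 8.77e-08). Cited1, a co-regulator without DNA binding of its own, stood at 18, 13.1 and 19.6 RPKM at P0 and 3.89, 3.21 and 3.65 RPKM at P3 (log2 change -1.95 ± 0.20, adjusted p = 8.02e-07) in the highest of 4 entries. All 3 were separate between the ages.

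Genes that hormones of birth are known to move did not change as one group. Of 16 glucocorticoid-responsive genes, 2 rose and 6 fell, among the latter Fkbp5, a chaperone of the receptor, from 9.51 ± 0.923 to 4.38 ± 0.193 RPKM (log2 change -0.96 ± 0.11, adjusted p = 2.69e-06). The metallothioneins Mt1 (-1.17 ± 0.16, adjusted p = 2.41e-05) and Mt2 (-1.40 ± 0.19, adjusted p = 1.91e-05) fell. Of 10 thyroid hormone genes, 3 rose and 3 fell, with 4 and 3 after scaling. Dio2, which activates the hormone, fell (-0.52 ± 0.13, adjusted p = 0.00776; adjusted p = 0.0522 without P0 replicate 3). Thrsp, one of its responsive genes, rose (0.59 ± 0.13, adjusted p = 0.00315). Of 16 clock genes, 5 rose and 4 fell, with 7 and 1 after scaling. The rises were 3 without P0 replicate 1 or P3 replicate 1, and 1 fell without P0 replicate 3 or P3 replicate 2. Per3 (0.67 ± 0.13, adjusted p = 9.32e-04) and Nr1d2 (0.65 ± 0.13, adjusted p = 0.00140) were among the rises, and the labels give no hour of collection. Txnip, which restrains glucose uptake and binds thioredoxin, went from 5.76 ± 0.530 to 17 ± 1.11 RPKM (log2 change 1.41 ± 0.10, adjusted p = 5.09e-09) in the higher of 2 entries, and Sod3, the extracellular superoxide dismutase, from 1.55 ± 0.529 to 4.18 ± 0.610 RPKM (log2 change 1.03 ± 0.15, adjusted p = 4.99e-05).

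Matrix genes rose in part. Of 35 tested, 11 rose and 3 fell, with 19 and 1 after scaling, 17 and 0 without P3 replicate 2, 9 and 0 without P0 replicate 1, 11 and 5 without P0 replicate 2, and 11 and 1 without P0 replicate 3. The basement membrane collagen Col15a1 stood at 26.6, 25.3 and 20.7 RPKM at P0 and 52.5, 35.8 and 47.9 RPKM at P3 (log2 change 0.87 ± 0.14, adjusted p = 1.49e-04), and the laminin Lama2 of muscle basement membrane went from 15.2 ± 0.662 to 26.8 ± 7.11 RPKM (log2 change 0.74 ± 0.14, adjusted p = 7.43e-04). Elastin, Eln, stood at 15.3, 23.2 and 20.8 RPKM at P0 and 38.8, 27.8 and 35.5 RPKM at P3 (log2 change 0.76 ± 0.23, adjusted p = 0.0193), a call that single libraries decided (adjusted p = 0.106 without P0 replicate 1, 0.0661 without P3 replicate 1 and 0.056 without P3 replicate 3). The fetal fibrillin Fbn2 fell (-0.70 ± 0.21, adjusted p = 0.0172; adjusted p = 0.0846 without P0 replicate 1 and 0.129 without P3 replicate 2). Of 11 antigen presentation genes, 4 rose and 0 fell, including the class I molecule H2-D1 (0.83 ± 0.15, adjusted p = 3.62e-04) and the immunoproteasome subunit Psmb8 (1.04 ± 0.21, adjusted p = 0.00110). Class I genes have close relatives, and reads may be shared among them.

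Markers of several cell types also differed between the ages, and in whole tissue fewer cells of a type and less RNA per cell cannot be told apart. Endothelial markers summed to 711 to 974 RPKM at P0 and 1434 to 1664 RPKM at P3, of which most was Fabp4, a fatty acid carrier of capillaries, at 509, 709 and 457 RPKM at P0 and 1119.6, 1333 and 1087 RPKM at P3 (log2 change 1.10 ± 0.16, adjusted p = 4.88e-05). Of 12 tested, 5 rose and 2 fell, with 8 and 0 after scaling, and the tight junction gene Cldn5 went from 19.4 ± 0.367 to 39.4 ± 3.13 RPKM (log2 change 0.98 ± 0.10, adjusted p = 7.31e-07). Smooth muscle and pericyte markers summed to 688 to 816 RPKM at P0 and 388 to 539 RPKM at P3, of which most was Acta2. The members moved apart, with 4 of 7 tested rising and 3 falling, as also after scaling. The contractile Acta2, also a fetal cardiomyocyte actin, stood at 682, 629 and 585 RPKM at P0 and 394, 227 and 283 RPKM at P3 (log2 change -1.10 ± 0.18, adjusted p = 2.11e-04), while the pericyte gene Rgs5 stood at 46.3, 45.1 and 39.6 RPKM at P0 and 91.7, 118 and 106 RPKM at P3 (log2 change 1.24 ± 0.11, adjusted p = 7.32e-08). Fibroblast markers summed to 556 to 738 RPKM at P0 and 661 to 805 RPKM at P3, with 5 of 11 higher and 1 lower, led by Mfap5 (1.23 ± 0.18, adjusted p = 4.16e-05). After scaling 7 were higher and 1 lower. Macrophage markers summed to 66.3 to 75.9 RPKM at P0 and 69.0 to 84.5 RPKM at P3. Their tested members numbered 9, with 2 higher and 1 lower, and 5 and 1 after scaling.

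Atrial markers summed to 1022 to 1289 RPKM at P0 and 273 to 403 RPKM at P3, all P0 libraries above all P3 libraries. Most of each sum was Nppa. Of 9 tested, 4 fell, and these were Nppa, Myl4, Myl7 and Bmp10, each also a gene of fetal ventricle. The other atrial markers, such as Dkk3 (0.29 ± 0.17, adjusted p = 0.204) and Stard10 (-0.00 ± 0.14, adjusted p = 0.987), were not called. Epicardial markers summed to 52.5 to 104 RPKM at P0 and 52.4 to 53.3 RPKM at P3, and P0 replicate 2, at 52.5 RPKM, lay inside the P3 range. Of 10 tested, 1 rose and 7 fell, with 4 lower without P0 replicate 1. The rise was that of Aldh1a2, with means of 14.0 RPKM at P0 and 25.8 RPKM at P3, a large part of the P3 sums. The keratin Krt19, for example, stood at 12.9, 6.02 and 10.2 RPKM at P0 and 2.68, 2.50 and 2.46 RPKM at P3 (log2 change -1.54 ± 0.25, adjusted p = 1.67e-04). Erythroid markers summed to 1989.9 to 3078 RPKM at P0 and 709.7 to 723 RPKM at P3, with 0 rising and 9 of 11 falling. After scaling 1 rose and 8 fell. The beta-globin Hbb-bs stood at 593, 428 and 591 RPKM at P0 and 155, 134 and 132 RPKM at P3 (log2 change -1.92 ± 0.24, adjusted p = 1.14e-05) and the alpha-globin Hba-a2 at 627, 389.8 and 463 RPKM at P0 and 127, 132 and 127 RPKM at P3 (log2 change -1.91 ± 0.19, adjusted p = 6.59e-07), in every P0 library above every P3 library. The paired globin genes are near-identical, so the split of reads between copies is uncertain. The part of any of these cell types in the pathway changes was not tested.

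**Figure D3:**
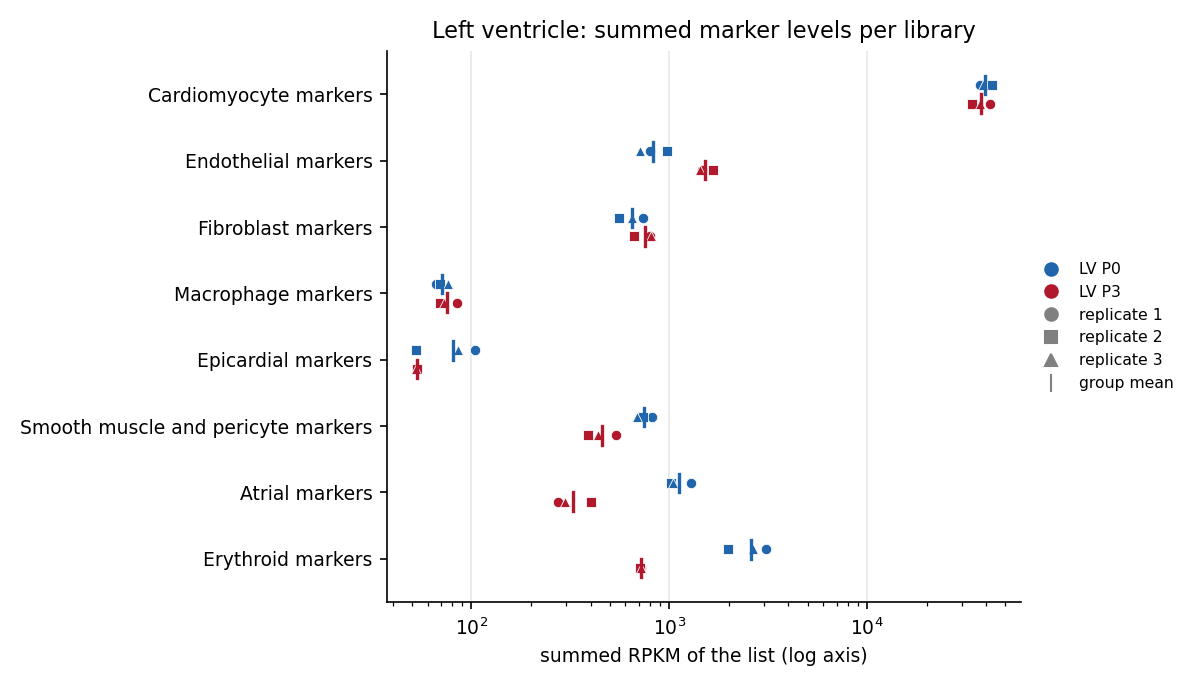
Summed RPKM of each list of cell type markers in each of the 6 LV libraries, on a log axis, with shapes for replicates, colours for ages and a bar for the group mean. Erythroid, atrial and smooth muscle sums are lower in all P3 libraries and the endothelial sum is higher, while cardiomyocyte and macrophage sums overlap between ages. Most of the atrial sum is Nppa, most of the smooth muscle sum Acta2 and most of the endothelial sum Fabp4.

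The change from P0 to P3 was set beside the next step in the same chamber, P3 to P7. The steps share the P3 libraries, so each is given by its own values and by the test of the difference between them, the first step minus the second. From P3 to P7, 687 genes (6.71%) rose and 2883 (28.2%) fell, and the steps differed for 397 genes (3.88%), 230 with the higher change in the first step (2.25%) and 167 with the lower (1.63%). Among fatty acid oxidation genes, 0 rose and 12 fell from P3 to P7 (median -0.26), and the steps differed for 20 of 26, each with the higher change in the first step. That count was 16 to 20 on leaving out any 1 of the 6 libraries. For PPAR-responsive genes it was 14 of 19, and 11 to 14. Angptl4 stood at 37.3 ± 2.46 RPKM at P7 (difference 4.06 ± 0.33, adjusted p = 1.47e-07) and Scd4 at 35.3 ± 4.04 RPKM (difference 4.26 ± 0.21, adjusted p = 4.97e-11). Ucp3 stood at 21.1 ± 3.01 RPKM at P7 (second step 0.22 ± 0.17, adjusted p = 0.330; difference 3.92 ± 0.30, adjusted p = 7.99e-08).

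Some glycolysis and hypoxia genes had lower changes in the first step than in the second. From P3 to P7 the medians were -0.21 and 0.01, and the steps differed for 9 of 21 and 5 of 14, each lower in the first. The glycolysis count ranged from 4 to 8 without 1 library and was 4 without P3 replicate 2, and 5 without P3 replicate 1 or P3 replicate 3; the hypoxia count was 3 without P3 replicate 1 or P3 replicate 3. Ndrg1, for example, changed by -1.24 and then by 0.40 ± 0.11, adjusted p = 0.00812 (difference -1.63 ± 0.18, adjusted p = 1.06e-05). Mitosis genes fell in both steps. From P3 to P7 22 of 23 fell, with a median of -0.72, and the steps differed for 0 (limma; 1 at an unadjusted p under 0.05, and 2 called without P3 replicate 2). DNA replication genes had a median of -0.84 from P3 to P7, all 27 falling. The steps differed for 7, a count that was 15 without P3 replicate 2, 2 without P0 replicate 3, 1 without P3 replicate 3 and 0 without P3 replicate 1.

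Among the contractile genes, Myh7 fell in both steps, to 15.5 ± 0.636 RPKM at P7 (second step -3.71 ± 0.36, adjusted p = 1.16e-06; difference -0.12 ± 0.62, adjusted p = 0.953). Tnni1, called from P0 to P3 only without P3 replicate 1 among the 6 libraries left out in turn, fell from P3 to P7 to 54.0 ± 1.21 RPKM (-1.94 ± 0.16, adjusted p = 1.43e-07; difference 1.6 ± 0.27, adjusted p = 0.00132). Nppb fell by 1.56 in the first step and changed by 0.90 ± 0.27, adjusted p = 0.0145 in the second (adjusted p = 0.0641 without P3 replicate 2), and the steps differed (-2.46 ± 0.46, adjusted p = 0.00317). Erythroid markers also turned. They had a median of 1.04 from P3 to P7, 7 of 11 rising, and the steps differed for 6. Hba-a2 stood at 472 ± 56.9 RPKM at P7 (second step 1.86 ± 0.19, adjusted p = 2.94e-06; difference -3.77 ± 0.34, adjusted p = 5.56e-07).

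**Figure D4:**
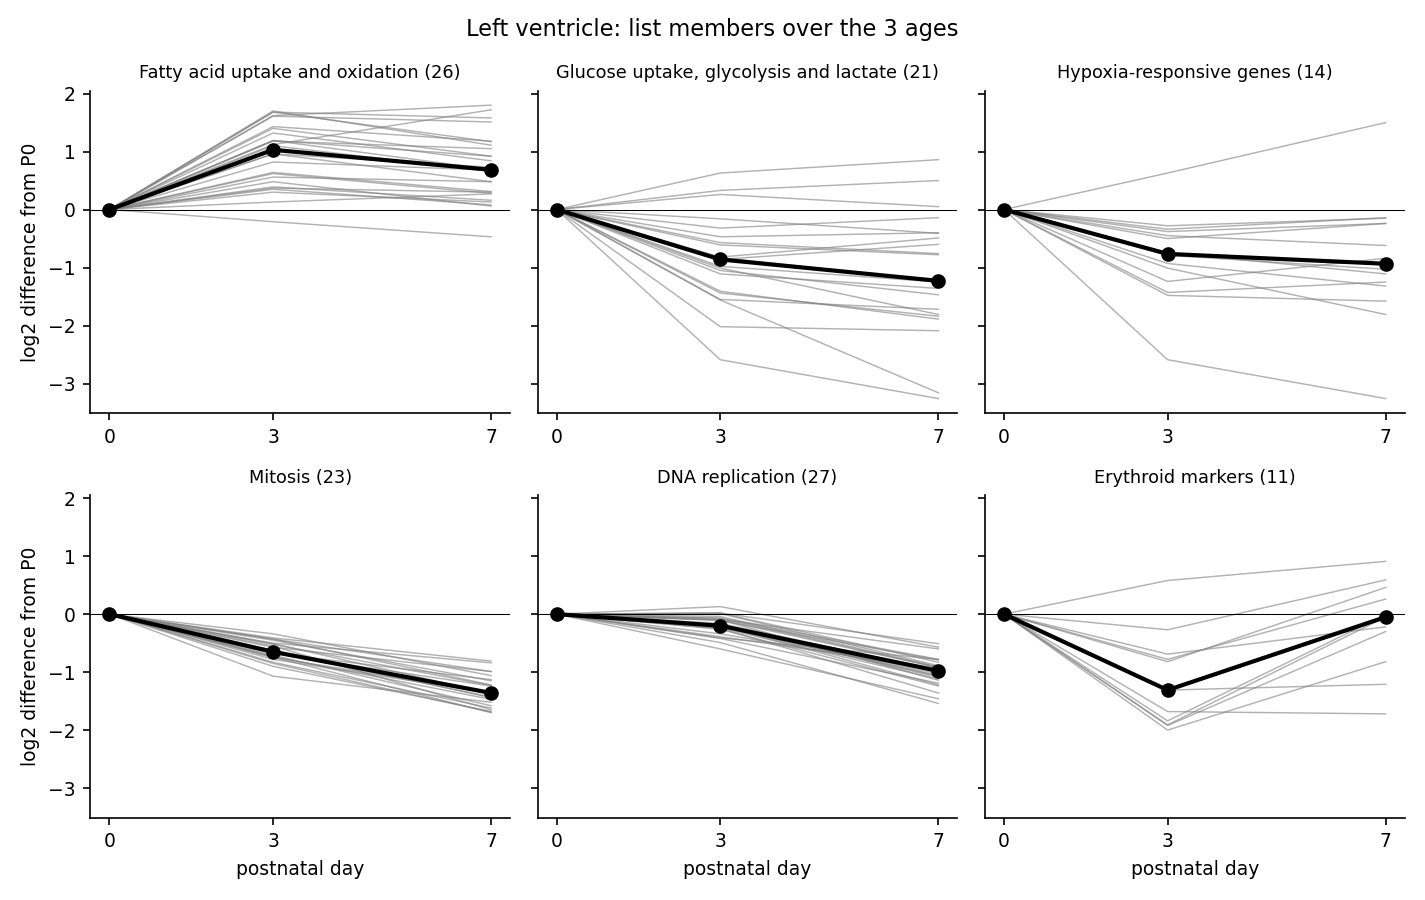
Fitted log2 difference from P0 at postnatal days 0, 3 and 7 in LV for the members of 6 lists, 1 thin line per tested gene and a black line for the list's median. The median of the fatty acid list is highest at day 3, those of glycolysis and hypoxia drop by day 3, that of DNA replication drops between days 3 and 7, that of mitosis drops in both steps and that of erythroid markers drops and then returns.

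Whether a change from P0 to P3 was particular to LV was tested as the LV change minus the RV change. In RV, 1013 genes (9.90%) rose and 2208 (21.6%) fell. With the libraries taken as independent, limma called 0 entries for the chamber difference (smallest adjusted p = 0.180), with 535 (5.01%) at an unadjusted p under 0.05. Libraries of LV and RV with the same number at the same age deviated together, so the fit was repeated with the number within age as a block, and 101 entries were then called (0.947%), 37 with the higher change in LV and 64 with the lower. The labels do not say that libraries with the same number came from the same hearts. The pairing was read from these same libraries, and the adjusted p-values of chamber differences below rest on it. The genes below were chosen after the values of this fit were seen.

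Nppb, Ankrd1 and Nppa, genes of wall stress, had less negative changes in LV than in RV. Nppb had changes of -1.56 in LV and -3.56 in RV, from 275 to 91.5 RPKM in LV and 347 to 28.8 RPKM in RV (difference 2.0 ± 0.19, adjusted p = 2.50e-05). Ankrd1, a nuclear stretch-response protein of cardiomyocytes, had changes of -0.65 in LV and -2.24 in RV, from 779 to 502 RPKM in LV and 1197 to 254 RPKM in RV (difference 1.59 ± 0.12, adjusted p = 9.86e-07). In LV alone Ankrd1 was not called, at 563, 855 and 919 RPKM at P0 and 594, 326 and 586 RPKM at P3 (log2 change -0.65 ± 0.27, adjusted p = 0.0806), but it was called lower without P0 replicate 1 (adjusted p = 0.0431 without P0 replicate 1). Nppa had changes of -2.02 in LV and -3.28 in RV (difference 1.26 ± 0.28, adjusted p = 0.0431). Ankrd23, of the same family as Ankrd1, rose in LV, with changes of 1.25 in LV and 0.20 in RV (difference 1.05 ± 0.11, adjusted p = 9.54e-05). Of the lists, 7 of 35 matrix genes, 4 of 10 epicardial markers, 3 of 9 macrophage markers and 2 of 10 imprinted growth genes were called, all with the lower change in LV. The higher change in LV was called for 3 of 12 fetal-type genes and 2 of 23 mitosis genes, Ube2c and Cdca8. Fewer members were called in each other list. The complement gene C3 had changes of 0.15 in LV and 1.85 in RV (difference -1.70 ± 0.18, adjusted p = 7.02e-05). Upk3b, of the mesothelial surface, had changes of -1.13 in LV and 0.10 in RV (difference -1.23 ± 0.17, adjusted p = 0.00205), and Msln, mesothelin, -0.93 in LV and 0.08 in RV (difference -1.01 ± 0.15, adjusted p = 0.00333). The fibrillar collagen Col3a1 had the lower change in LV, 0.54 in LV and 1.11 in RV (difference -0.57 ± 0.11, adjusted p = 0.0228).

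**Figure D5:**
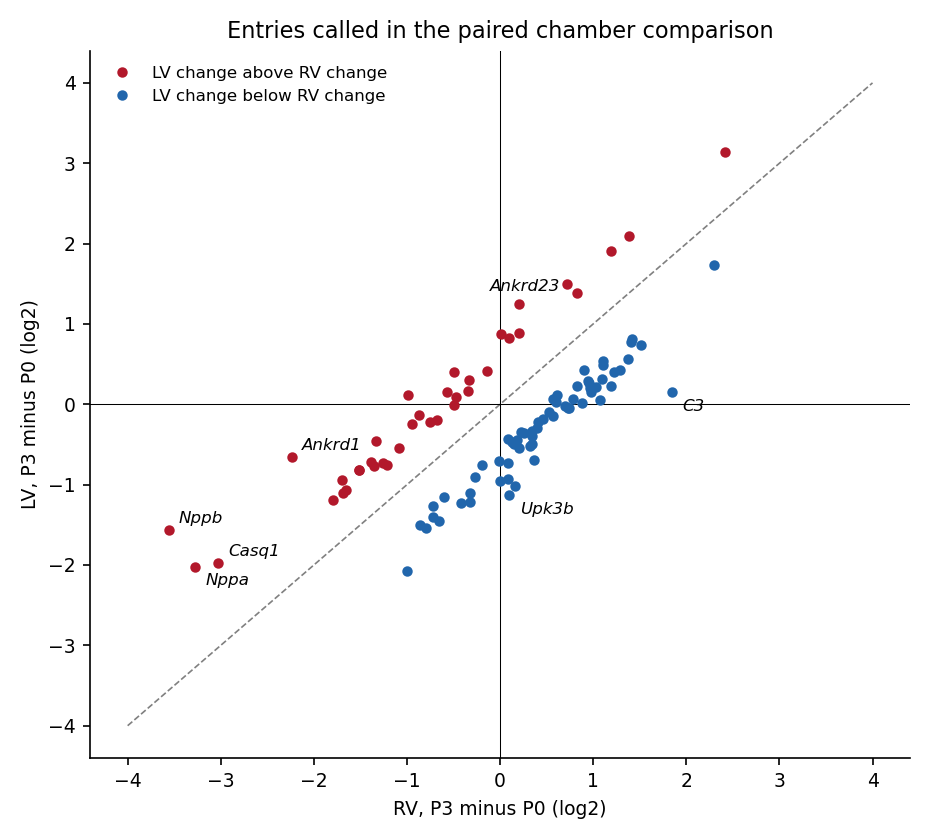
Log2 change from P0 to P3 in LV (vertical) against RV (horizontal) for 100 of the 101 entries called in the paired chamber comparison, coloured by the sign of the difference, with the line of equal change. Nppb, Ankrd1 and Nppa lie above the line with negative changes in both chambers, and C3 lies below it.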

How the data were processed

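Total RNA of whole left and right ventricle was sequenced as strand-specific paired-end libraries, per the labels' protocols. Alignment used STAR 2.4.0j on mm10, per the submitters' processing notes, and the sources used here do not give the counting tool or annotation. The deposited values are taken as RPKM because values of an entry are whole multiples of 1 step per library for 20622 of 20624 entries (within 0.02 of a whole read), which also gave the library sizes. This held at the reference length for 3557 entries. For other entries with reads, the smallest length that fitted every library was used, so their read counts are estimates. Entries without reads in any library were counted as whole. RefSeq named 20379 entries, GENCODE 76, and 169 stayed unnamed. Fold changes and scaled values were computed here. Groups follow the labels.

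The 10668 entries that reached 1 RPKM in 2 or more of the 17 libraries were tested with limma 3.58.1 (R 4.3.3; lmFit, contrasts.fit, eBayes with trend) on log2(RPKM + 1), pseudocount 1, in 1 model of 6 groups, two-sided, with Benjamini-Hochberg adjustment over all tested entries and a threshold of 0.05. A gene enters by its entry with the highest mean. LV and RV libraries with the same number at the same age had residual correlations of 0.269 to 0.587, so these numbers were taken as pairs within age. Between LV P0 and P3 they were -0.031, 0.145 and 0.049, so there they were not. Alternatives were upper-quartile and median-ratio scaling, a pseudocount of 0.1, no filter, a filter of 5 RPKM, only the groups compared, a replicate block and each library left out. The script was tested on simulated data. Python 3.11.15, numpy 2.4.6, pandas 2.3.3, scipy 1.17.1 and matplotlib 3.10.9 were used.

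The members and gene lists were chosen with earlier results of these data known. Genes were named by rule: the 12 largest separate rises and falls called on both scales with at least 5 RPKM in the higher group, up to 4 called members of each list, the 4 highest and lowest for the step difference, and a few of interest to the study. Some genes that the rule selects are not reported here. Other list members named in passing were chosen after their values were seen. Promoters are from RefSeq in GRCm38.p6, with 9975 promoters for 8180 tested genes, and 9 patterns were searched over 250 bases before to 50 after each start.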

Additional observations from a re-analysis of the deposited data

Results flagged for a closer look

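The chamber comparison drew attention because its result differed between fits. With the LV and RV numbers paired within age, a pairing that the labels do not state, 101 entries were called for the chamber difference. With the libraries taken as independent, 0 were called (limma, 535 at an unadjusted p under 0.05).

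Among the called genes above 5 RPKM, 7 at the ends of the test between the P0 to P3 and P3 to P7 steps of LV are given here. The first step minus the second was 4.26 on the log2 scale for Scd4, 4.06 for Angptl4 and 3.92 for Ucp3, genes of fat desaturation, lipoprotein lipolysis and uncoupling. At the other end it was -3.77 for Hba-a2, -3.67 for Hba-a1, -3.54 for Hbb-bs and -3.19 for Hbb-bt, the adult globins, which fell by P3 and were higher again at P7. The part of blood content in these libraries was not tested.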

How the results depend on the processing

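The main comparison called 774 entries higher and 2201 lower at P3. Upper-quartile scaling gave 1386 and 1134 and median-ratio scaling 1344 and 1177, since both raise the median of all entries from -0.13. Without each single library the counts ran from 590 to 743 higher and from 1306 to 2371 lower, with 1306 lower without P0 replicate 1 and 1359 without P3 replicate 2. Leaving out P3 replicates 2 and 3 together, chosen after seeing the data, gave 430 and 572, with fewer libraries. With the replicate number as a block, 869 rose and 2603 fell. The difference between the steps (236 higher, 173 lower) was 97 to 444 higher and 74 to 182 lower without single libraries, at 97 and 74 without P3 replicate 1, 444 higher without P3 replicate 2, and 113 and 76 without P3 replicate 3. It was 138 and 43 without P3 replicates 2 and 3 together, 147 and 85 with no filter on low values, and 293 lower with median-ratio scaling. The cause of these moves was not tested. The chamber difference was 0 unpaired and 101 with the replicate block within age. Of 170 called genes named by the rule, 0 reversed in any setting. Calls were lost for 14 after upper-quartile scaling, 15 after median-ratio scaling, 1 with a pseudocount of 0.1, 24 with no filter, 4 with the 6 libraries alone, 8 to 24 without 1 library and 51 without P3 replicates 2 and 3 together. With the replicate block 0 of them lost the call. Depth limits the low genes, such as Ucp3 and Fbp2 at P0.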

Other observations

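Some groups were not described above. Over all tested genes 7.31% rose and 20.9% fell, with 13.2% and 10.7% after upper-quartile scaling. Of 19 genes of autophagy and muscle protein breakdown, 4 rose and 2 fell, with 9 and 1 after upper-quartile scaling, and 2 rose without P0 replicate 3 or P3 replicate 1 and 1 without P3 replicate 2. Pink1, the kinase that marks damaged mitochondria, rose from 57.0 ± 4.09 to 94.7 ± 15.6 RPKM (log2 change 0.71 ± 0.12, adjusted p = 2.76e-04). Among 14 immediate-early genes there were 2 rises and 3 falls, with 1 lower without P3 replicate 2. Egr1, an early growth response factor, rose from 5.67 ± 0.924 to 13.8 ± 5.36 RPKM (log2 change 1.10 ± 0.27, adjusted p = 0.00558). Of 12 interferon response genes 1 rose, the antiviral Rsad2 (adjusted p = 0.059 without P0 replicate 3), and 4 rose without P0 replicate 2. Nerve and Schwann cell markers summed to 38.1 to 46.6 RPKM at P0 and 20.9 to 23.7 RPKM at P3, of which most was Uchl1. Uchl1, a neuronal hydrolase, fell from 37.9 ± 4.79 to 18.4 ± 1.02 RPKM (log2 change -0.99 ± 0.13, adjusted p = 1.17e-05). Lymphatic markers summed to 39.3 to 53.1 RPKM at P0 and 31.5 to 34.2 RPKM at P3, and of 5 tested 0 rose and 2 fell. Prox1, the largest member of the sum, had means of 17.7 RPKM at P0 and 17.6 RPKM at P3. Lyve1, a gene that macrophages also express, fell from 12.4 ± 1.25 to 3.89 ± 0.531 RPKM (log2 change -1.45 ± 0.18, adjusted p = 9.49e-06).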
